A study of Mus musculus with 8 samples.

Results

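Hemoglobin transcripts were followed in the brains of 8 mice through 4 genes: Hba-a2, an adult alpha-globin gene, Hbb-bs and Hbb-bt, the adult beta-globin genes of the C57BL haplotype, and Alas2, the enzyme of the first step of heme synthesis in red cell precursors. The genes were chosen by the measured values themselves, for a wide spread of globin signal between arrays, so the width of that spread is given as a description with no test. Each gene had 1 probe, so 4 of the 23473 probes on the array were followed, and all 4 lay above the detection limit on 8 of 8 arrays and were among the 21583 probes tested. The detection limit of an array lay 2 SD above the mean of its blank spots.

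The study gave trehalose, a disaccharide of glucose, to male C57Bl/6J mice recorded as 9 weeks old, caged by threes and acclimatized for 1 week. RNA of the brain of each mouse was hybridized to a one-colour oligonucleotide array of 27456 spots. Mice that drank water were killed at day 0 (n = 2), and mice given trehalose were killed after 1 day (n = 3) or 10 days (n = 3). All mice had fasted for 6 h and were perfused through the heart with heparinized phosphate buffer before the brain was taken. The series text names the frozen left hemisphere as the array tissue, whereas the sample labels name the cerebral cortex. Water mice were sampled at day 0 alone, so the treatment and the time of sampling cannot be told apart. Mice are named here by group and by the sample number of their title, and p-values measure the spread between these mice.

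Adult hemoglobin is a tetramer of alpha and beta chains, each holding a heme, and its messages make up most of the RNA that young red cells keep after they lose the nucleus. Perfusion replaces the blood in brain vessels with buffer, and whatever blood stays behind brings globin messages into a brain RNA sample. Some neurons and glia are also known to transcribe globin genes at a low level. The alpha genes Hba-a1 and Hba-a2 are near-identical copies, and Hbb-bs and Hbb-bt are close copies, so which copy a probe reads is uncertain. In whole tissue, fewer cells of a type and less RNA per cell cannot be told apart.

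The promoters of the 4 genes are shown because the 3 globin genes moved together over the arrays and Alas2 varied little. Each line gives the 250 bases before the RefSeq start, 5′ to 3′ on the strand of the gene, from RefSeq on GRCm38.p6. The Hba-a2 stretch is chr11:32296242-32296491 on the plus strand, that of Hbb-bs chr7:103827929-103828178 and that of Hbb-bt chr7:103813924-103814173, both on the minus strand, and that of Alas2 chrX:150547167-150547416 on the plus strand. Capitals mark matches to 4 motifs: the GATA factor motif on either strand (the letters AGATAA or their variant AGATAG, and the letters TGATAA or their variant TGATAG), the CACCC box on either strand, the CCAAT box on either strand, and the letters ATATAA on the printed strand.
Hba-a2: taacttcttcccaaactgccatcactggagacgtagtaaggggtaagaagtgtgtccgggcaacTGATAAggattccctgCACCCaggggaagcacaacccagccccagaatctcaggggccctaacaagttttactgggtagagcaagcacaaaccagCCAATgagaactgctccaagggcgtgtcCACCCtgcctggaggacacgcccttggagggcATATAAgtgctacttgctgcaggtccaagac
Hbb-bs: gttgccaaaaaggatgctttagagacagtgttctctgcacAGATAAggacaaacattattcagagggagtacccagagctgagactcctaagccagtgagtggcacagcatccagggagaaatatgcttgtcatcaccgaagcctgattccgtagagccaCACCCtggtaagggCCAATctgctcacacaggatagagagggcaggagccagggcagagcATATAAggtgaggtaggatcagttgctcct
Hbb-bt: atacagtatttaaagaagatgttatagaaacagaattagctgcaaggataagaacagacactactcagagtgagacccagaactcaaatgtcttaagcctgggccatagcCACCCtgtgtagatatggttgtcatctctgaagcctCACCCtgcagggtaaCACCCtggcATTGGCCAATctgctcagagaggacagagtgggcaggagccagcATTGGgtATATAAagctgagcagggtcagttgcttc
Alas2: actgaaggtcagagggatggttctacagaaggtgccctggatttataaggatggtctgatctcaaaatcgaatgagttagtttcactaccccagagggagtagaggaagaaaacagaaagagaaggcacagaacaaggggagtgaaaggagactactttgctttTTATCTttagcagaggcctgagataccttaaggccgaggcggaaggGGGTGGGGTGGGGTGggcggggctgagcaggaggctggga

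The Hba-a2 and Hbb-bs windows each held all 4 motifs, a combination present in 0.298% of 32851 promoter windows of the same length. ATATAA ended 26 bases before the start in Hba-a2, 25 in Hbb-bs and 24 in Hbb-bt, and 5.57% of all windows held it. The Hbb-bt window held 3 CACCC and 3 CCAAT matches, a pair of which were adjoining, and no match to the GATA letters searched. The Alas2 window held 1 GATA match and 3 adjoining CACCC matches on the opposite strand, with neither CCAAT nor ATATAA. Over all windows, 26.5% held the GATA motif, 52.0% CACCC and 33.8% CCAAT. The windows of Hbb-bs and Hbb-bt were 70.9% identical in a global alignment, those of Hba-a1 and Hba-a2 97.6%, and those of Hba-a2 and Hbb-bs 48.5%. A match describes letters in a window and is not evidence of a binding site.

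Hba-a2 had the largest SD between arrays of the tested probes on the normalized log2 scale, though not the widest span under other background corrections, as given below with Hbb-bt and Hbb-b2. Its spot intensity was 1169 and 321 in water mice 1 and 2. It was 2630, 1555 and 780 in the mice given trehalose for 1 day, and 2764, 246 and 730 in those given it for 10 days. The highest and the lowest arrays were both in the 10-day group, and the groups overlapped. After background correction and quantile normalization the log2 intensities were 10.21 and 8.48 with water, 11.27, 10.53 and 9.74 at 1 day, and 11.48, 8.13 and 9.55 at 10 days, a span of 10.1-fold. The SD over the 8 arrays was 1.20, rank 1 of 21583, against a median of 0.0642 for all tested probes.

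The beta-globin probe of Hbb-bs followed the same course. Its spots read 1150 and 417 with water, 2200, 1366 and 917 at 1 day, and 2176, 391 and 731 at 10 days. On the normalized log2 scale the values were 10.19 and 8.84 with water, 11.01, 10.35 and 9.98 at 1 day, and 11.10, 8.76 and 9.55 at 10 days. The span was 5.08-fold and the SD 0.884, rank 5 of the tested probes.

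Hbb-bt, the other adult beta gene, had dimmer spots with 223 and 77.6 in water mice, 397, 280 and 164 at 1 day, and 461, 61.8 and 142 at 10 days. Its normalized log2 values were 7.92 and 6.72 with water, 8.64, 8.18 and 7.63 at 1 day, and 8.94, 6.49 and 7.35 at 10 days, a span of 5.49-fold with an SD of 0.867, rank 7. Mouse 1 was again the brightest of each group. The offset of 50 used in the background correction compresses dim probes, and with the mean of the blank spots subtracted instead the span of Hbb-bt was 12.3-fold, against 11.5-fold for Hba-a2 and 5.39-fold for Hbb-bs. In the authors' deposited table the spans were 13.4-fold for Hbb-bt, 12.6-fold for Hba-a2 and 5.89-fold for Hbb-bs.

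A further probe, listed as Hbb-b2, carries a gene identifier of its own and not that of Hbb-bt, and it is set beside the 4 genes without being counted among them. It belongs to the minor adult beta gene of the other mouse haplotype. Its log2 values were 7.32 and 6.15 with water, 7.98, 7.54 and 6.93 at 1 day, and 8.37, 6.06 and 6.63 at 10 days. Its SD of 0.834 ranked 8th and its order of arrays was that of Hba-a2. Its span was 4.95-fold on the normalized scale, 22.6-fold with the blank mean subtracted and 24.6-fold in the authors' deposited table, the last 2 wider than those of the 3 globin genes.

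Alas2 went against the description of a wide spread. Its spots read 62.5 and 62.1 in water mice, 72.9, 71.4 and 62.1 at 1 day, and 64.7, 62.4 and 66.8 at 10 days, which is 1.83 to 2.22 times the detection limit. The log2 values were 6.43 and 6.48 with water, 6.56, 6.54 and 6.46 at 1 day, and 6.51, 6.50 and 6.51 at 10 days. The span was 1.10-fold, or 1.24-fold with the blank mean subtracted, and the SD of 0.0418 ranked 16015 of the tested probes. The spread of this probe was therefore below the median of 0.0642, while those of the 3 globin probes were among the 7 widest.

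**Figure D1:**
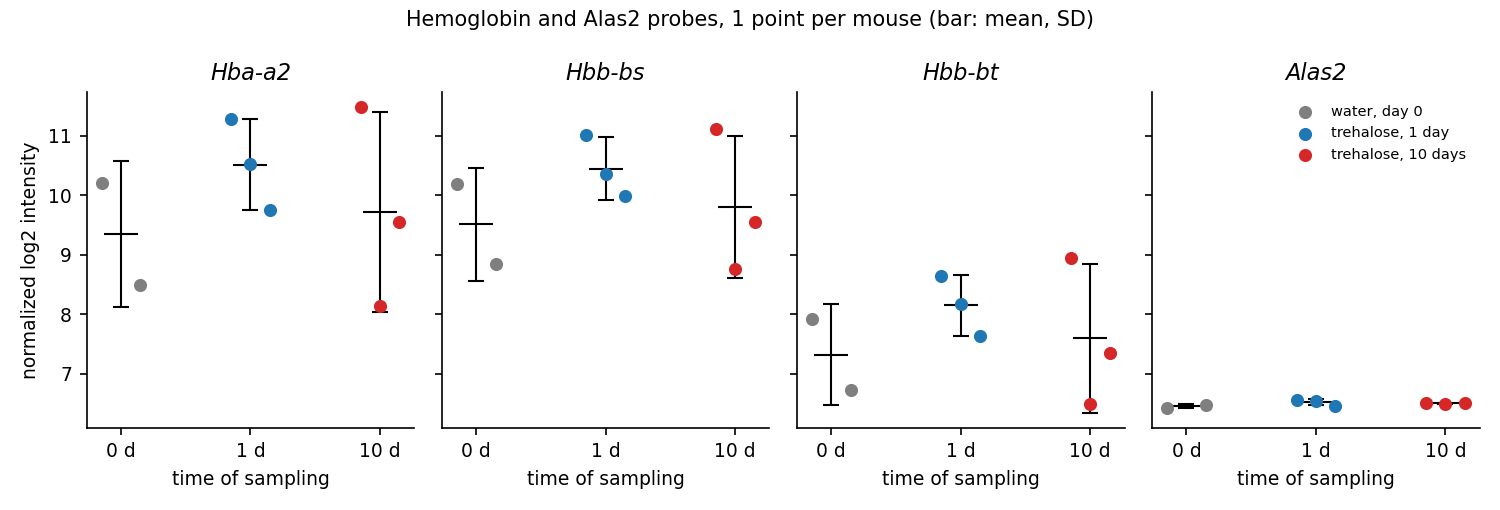
Normalized log2 intensity (y axis) of the Hba-a2, Hbb-bs, Hbb-bt and Alas2 probes by time of sampling (0, 1 and 10 days), 1 point per mouse, with the group mean and SD as bars (n = 2, 3 and 3). The globin points span 8.13 to 11.48 for Hba-a2 and overlap between groups, and the Alas2 points lie between 6.43 and 6.56.

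The globin probes ordered the 8 arrays identically. Mouse 1 of the 10-day group was the brightest, followed by mice 1 and 2 of the 1-day group, water mouse 1, mouse 3 of the 1-day group, mouse 3 of the 10-day group, water mouse 2 and mouse 2 of the 10-day group. Spearman's rank correlation over the 8 arrays was 1 for each of the 6 pairs among Hba-a2, Hbb-bs, Hbb-bt and Hbb-b2, and Pearson's r was at least 0.987. These coefficients are descriptions of genes picked for this pattern, and near-identical messages may hybridize to more than 1 probe. The rank correlation stayed at 1 for all 6 pairs with the blank mean subtracted and in the authors' deposited table, and its lowest value was 0.833 when the local background column was subtracted. Alas2 against Hba-a2 had r = 0.384 (exact permutation p = 0.357, two-sided) and Spearman's coefficient = 0.405 (exact permutation p = 0.327), and r was 0.517 without the 2 arrays farthest from the median of Hba-a2. Over 7 other processing settings this r lay between −0.463 and 0.723.

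**Figure D2:**
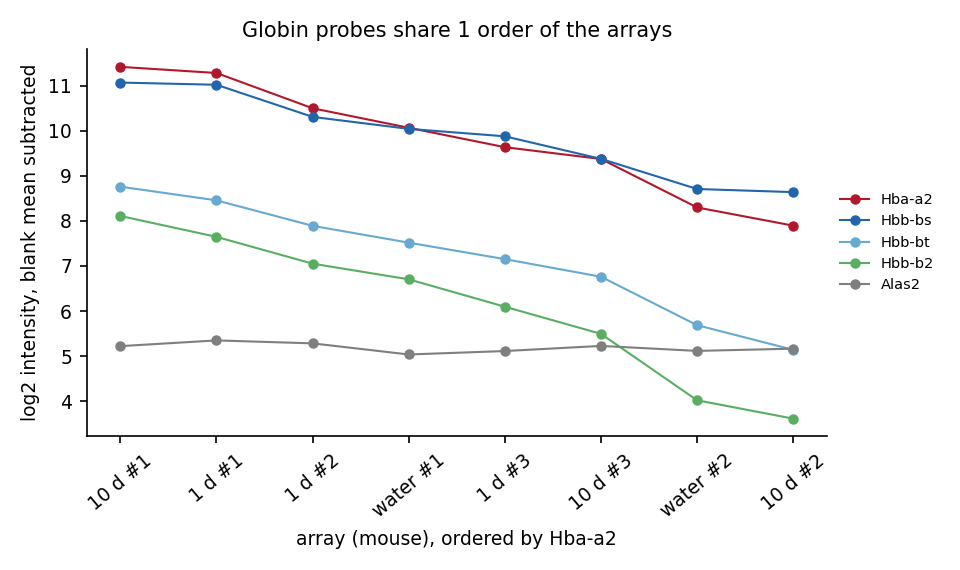
Log2 intensity with the blank mean subtracted (y axis) for the Hba-a2, Hbb-bs, Hbb-bt, Hbb-b2 and Alas2 probes on the 8 arrays, which run along the x axis from the highest to the lowest Hba-a2, 1 line per probe. The 4 globin lines fall along 1 order of arrays while Alas2 stays level, and heights of different probes are not comparable.

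The spots around each globin probe varied over a narrower range than the probe. The median of the 8 spots nearest to the Hba-a2 spot deviated over a range of 0.31 on the log2 scale across the arrays, and the corresponding ranges were 0.30 for Hbb-bs, 0.22 for Hbb-bt and 0.15 for Alas2. As a description, these deviations had r = 0.54 (Hba-a2), −0.07 (Hbb-bs), 0.64 (Hbb-bt) and 0.20 (Alas2) with the mean of the 3 globin genes. The local background recorded at the Hba-a2 spot itself varied widely. It was 480 and 51.2 with water, 1239, 1133 and 164 at 1 day, and 504, 52.7 and 89.1 at 10 days. Its part in the spread was not tested. Of all tested probes, 69 (0.320%) had a range of at least 1 on the log2 scale, and the median range was 0.19. The arrays themselves were alike in coverage, with 86.3% to 92.0% of probes above the detection limit.

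None of the 4 genes passed the test at 1 day of trehalose against water. Hba-a2 averaged 10.51 ± 0.77 at 1 day (SD, n = 3) and 9.35 ± 1.22 with water (SD, n = 2), a log2 change of 1.17 with a standard error of 0.95 and a 95% interval of −1.04 to 3.37. Leaving out 1 mouse at a time moved it between 0.30 without water mouse 2 and 2.03 without water mouse 1, and the changes below between 0.26 and 1.60 for Hbb-bs and between 0.23 and 1.43 for Hbb-bt. For Hbb-bs the difference was 0.93 on the log2 scale (−0.65 to 2.52), and for Hbb-bt it was 0.83 (−0.77 to 2.42). The intervals reach from a fall to a rise of several fold, so the arrays do not show that the levels were alike. For Alas2 it was 0.07, with limits of −0.03 and 0.16. The adjusted p of limma was 1.00 for each of the 4 genes at 1 day. limma called 0 of 21583 probes at an adjusted p of 0.05, which is 0% of them, and 787 had an unadjusted p under 0.05. The 1-day and water mice were apart, with no overlap of their values, for 0 of the 4 genes and for 18.2% of all tested probes.

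At 10 days against water the differences of the globin genes were smaller than at 1 day and their intervals as wide. Hba-a2 averaged 9.72 ± 1.68 at 10 days (SD, n = 3) and 9.35 ± 1.22 with water (SD, n = 2), a log2 change of 0.37 (95% interval −1.83 to 2.58). The log2 changes were 0.29 for Hbb-bs, 0.27 for Hbb-bt and 0.05 for Alas2, all with an adjusted p of 1.00 in limma. The sign rested on single mice: without mouse 1 of the 10-day group the changes were −0.51 for Hba-a2, −0.36 for Hbb-bs and −0.40 for Hbb-bt, and without water mouse 2 they were −0.49, −0.38 and −0.33 in the same order. limma called 0% of the tested probes, with 432 at an unadjusted p under 0.05. Alas2 was the 1 gene of the 4 whose 10-day and water mice did not overlap, at 6.50 to 6.51 and 6.43 to 6.48, and 13.4% of all tested probes had groups apart in this comparison.

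At 10 days against 1 day Hba-a2 averaged 9.72 ± 1.68 and 10.51 ± 0.77 (SD, n = 3 each), a log2 change of −0.80 (95% interval −2.77 to 1.18). The log2 changes were −0.64 for Hbb-bs, −0.56 for Hbb-bt and −0.02 for Alas2, with an adjusted p of 1.00 each. limma called 0% of the tested probes (756 at an unadjusted p under 0.05), and the groups of 0 of the 4 genes were apart, against 8.4% of all tested probes. With both trehalose times pooled against water, the log2 changes were 0.77 for Hba-a2 (95% interval −1.20 to 2.74), 0.61 for Hbb-bs, 0.55 for Hbb-bt and 0.06 for Alas2. None of the 4 passed. limma called 0% of the tested probes in the pooled comparison (568 at an unadjusted p under 0.05), and 0 of the 4 genes had groups apart, against 4.73% of all tested probes. Leaving out water mouse 2 turned the pooled globin changes to −0.09 for Hba-a2, −0.06 for Hbb-bs and −0.05 for Hbb-bt. The comparisons with water share the same 2 water mice.

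The variation of the globin genes lay mostly between mice of the same group, as it did for the median tested probe. Of the total sum of squares of Hba-a2, 81.9% was within groups, and the shares were 78.4% for Hbb-bs, 82.5% for Hbb-bt and 54.7% for Alas2. The median over all tested probes was 79.4%. Within the 10-day group alone Hba-a2 spanned 10.1-fold, within the 1-day group 2.89-fold and between the 2 water mice 3.31-fold.

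Other genes of red cells varied less over the arrays than the globins. Lists of markers of red cells, other blood cells, vessels and brain cells held 182 tested probes outside the 4 genes and Hbb-b2. Their median SD was 0.0771, their widest range was 0.78 on the log2 scale, and 0 of them passed in any of the 3 pairwise comparisons or reached a range of 1. That scale compresses dim probes, and the number with a range of at least 1 was 21 with the blank mean subtracted, 17 in the authors' deposited table and 50 with the local background subtracted. The red cell membrane and cytosol list held 22 tested probes, of which 12 were higher and none passed at 1 day against water (median log2 change 0.02, against −0.00 for all tested probes). At 10 days against water 13 of the 22 were higher (median 0.01) and at 10 days against 1 day 7 were (median −0.02), and none passed. The mean level of the list lay between 7.08 and 7.11 with water, 7.11 and 7.12 at 1 day, and at 7.10 on each 10-day array.

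Within that list, Slc4a1, the anion exchanger of the red cell membrane, had a probe that read 0.919 to 0.950 times the detection limit and was above it on 0 of 8 arrays, so it was not tested. Bpgm, which makes 2,3-bisphosphoglycerate in red cells, had the widest range of the list at 0.57, ahead of Epor, the erythropoietin receptor, at 0.40. Fech, which inserts iron into heme, had a range of 0.27. As a description, r with the mean of the 3 globin genes was −0.48 for Bpgm, 0.32 for Epor and −0.64 for Fech. The erythroid transcription factor list of 9 tested probes contained Gata1 with a range of 0.33 and Klf1 with 0.17, and its widest ranges were those of Bcl11a (0.60) and Lmo2 (0.42), which brain cells also transcribe. Their r with the globin mean was 0.31 for Gata1, 0.27 for Klf1, −0.60 for Bcl11a and −0.11 for Lmo2. In the heme synthesis list of 11 tested probes, Alas1, the housekeeping form of the enzyme that Alas2 encodes, had a range of 0.35, Alad 0.54 and Cpox 0.44. Their r with the globin mean was −0.18, −0.37 and −0.68 in the same order.

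Heme and iron handling genes were as narrow. Hmox1, the inducible heme oxygenase, had a range of 0.22 on the log2 scale and Hmox2, the constitutive form, 0.62. The plasma hemoglobin scavenger Hp had a range of 0.25 and the transferrin receptor Tfrc 0.37. As a description, r with the globin mean was −0.14 for Hmox1, −0.74 for Hmox2, −0.11 for Hp and 0.53 for Tfrc. Among 16 tested probes of this list, 4 were higher at 1 day and 3 at 10 days than with water, and 8 were higher at 10 days than at 1 day, none past the threshold.

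Markers of other blood cells had far narrower ranges than the globins. Some were dim, such as Pf4 and Cd79a at means of 6.12 and 6.09, and the offset compresses changes there. S100a9 was wide for this array, with an SD of 0.218, above those of 98.4% of all tested probes. The neutrophil genes S100a9 and S100a8 had ranges of 0.66 and 0.40, both brightest in mouse 1 of the 1-day group, where S100a9 read 6.61 against 5.94 to 6.12 on the other 7 arrays, and Ngp had a range of 0.13. The platelet genes Pf4, Ppbp, Gp1bb and Treml1 had ranges of 0.17, 0.13, 0.24 and 0.17. The lymphocyte genes Cd79a, Cd3d and Cd4 had ranges of 0.10, 0.22 and 0.38, and the Cd3e probe was above the detection limit on 5 arrays. The monocyte marker Ly6c2 had 2 probes with ranges of 0.14 and 0.24, and Nr4a1, an early response gene also active in neurons, had one of 0.38. The part of these cells in the globin spread was not tested.

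Vessel and brain markers were likewise far narrower than the globins. The endothelial genes Cldn5, Pecam1, Kdr and Slco1a4 had ranges of 0.40, 0.20, 0.60 and 0.53, and the mural cell genes Rgs5, Acta2 and Vtn 0.14, 0.32 and 0.35. Choroid plexus genes were the widest list by median SD, with ranges of 0.77 for Folr1 and 0.78 for Kcne2. Ttr, the transthyretin carrier, had a range of 0.44, but its mean of 14.77 lay near the top of the scale. Quantile normalization gives each array the same few values there, so that range is made of steps in rank. Meningeal and fibroblast genes reached 0.56 for Dcn, 0.34 for Lum, 0.32 for Igf2 and 0.12 for Col1a1. The tissue was brain by its markers, since the neuronal gene Syt1 averaged 12.20 and the astrocyte gene Gja1 11.31 on the log2 scale, with ranges of 0.77 and 0.43. Gad2, Mog, Mag, Slc1a2, Aif1, C1qc and Cx3cr1, markers of inhibitory neurons, oligodendrocytes, astrocytes and microglia, had ranges of 0.22 to 0.73.

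**Figure D3:**
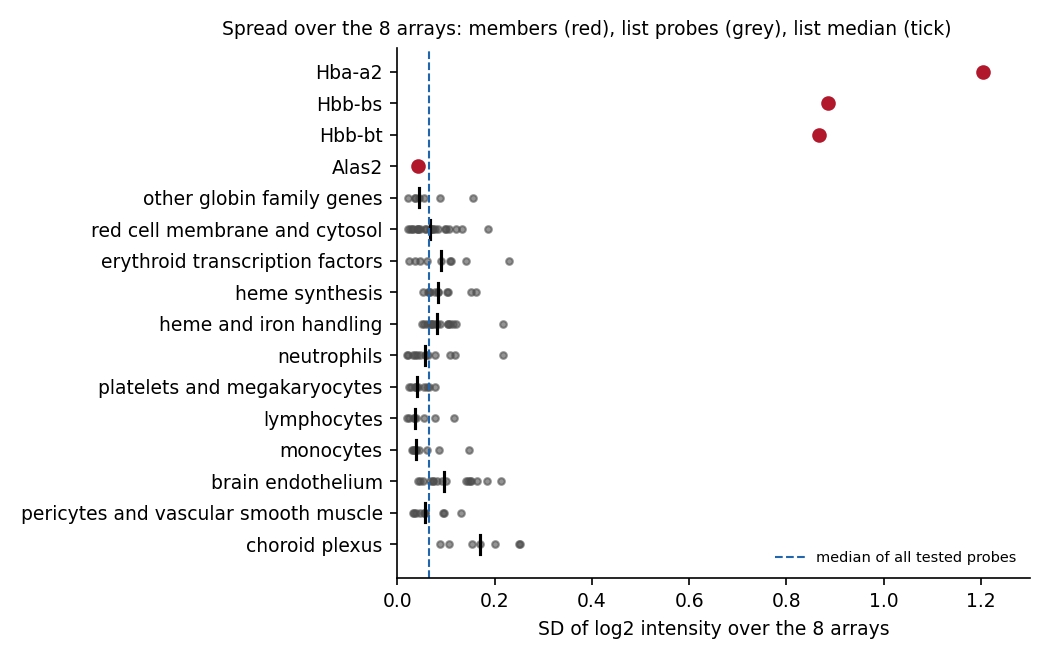
SD of log2 intensity over the 8 arrays (x axis) for the 4 genes (red) and for each tested probe of 12 marker lists of blood, heme, vessel and choroid plexus genes (grey), with the list median as a tick and the median of all tested probes, 0.0642, as a dashed line. Hba-a2, Hbb-bs and Hbb-bt lie between 0.867 and 1.20, apart from every list probe, and Alas2 lies at 0.0418.

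The embryonic globin genes were dim, whereas neuroglobin and cytoglobin were not. The embryonic genes Hbb-bh1, Hbb-y and Hba-x averaged 5.86, 5.88 and 5.94 on the log2 scale with SDs of 0.0211, 0.0549 and 0.0355, and Hbb-bh1 and Hbb-y were above the detection limit on 6 of 8 arrays. With the blank mean subtracted, which spreads values near the limit, their ranges were 1.10, 1.58 and 1.02. Neuroglobin (Ngb) and cytoglobin (Cygb), globins of neurons and of fibroblast-like cells, averaged 7.72 and 9.30 with ranges of 0.24 and 0.48. Myoglobin (Mb), the muscle globin, was dim at 6.54 with a range of 0.14, and so was Hbq1a at 5.88 with a range of 0.11. The mean of the 7 probes of this family followed Hba-a2 with r = 0.877 (exact permutation p = 0.00372, two-sided) and Spearman's coefficient = 0.881 (exact permutation p = 0.00724). Adjusted over the 20 relations computed with Hba-a2, p was 0.0372 for r and 0.0724 for the rank correlation, and r was 0.795 without the 2 arrays farthest from the median. One of the 20 relations was that of the Hbb-b2 probe, whose course over the arrays was fixed by the choice of genes, and with it left out of the adjustment p for r was 0.0707 over 19 relations, so no list passed. The mean of the family had an SD of only 0.04 on the log2 scale, and cross-hybridization of globin messages was not tested. Of the 7 probes Cygb had the largest SD, at 0.155. As a description, r with the mean of the 3 globin genes was 0.76 for Cygb, 0.48 for Ngb and 0.42 for Mb. It was 0.84 for Hbb-bh1, 0.78 for Hbb-y, 0.19 for Hba-x and −0.28 for Hbq1a. The correlation of the family mean with Hba-a2 was 0.482 in the authors' deposited table and 0.575 with the local background subtracted, where it no longer passed. With median scaling, or without any 1 of 5 mice (water mouse 1, mice 1 and 2 of the 1-day group, mice 2 and 3 of the 10-day group), no list passed after adjustment, with r between 0.799 and 0.923 over all single omissions.

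Of the means of the other 16 lists, 0 passed with Hba-a2 at an adjusted p of 0.05, and 0 had an unadjusted p under 0.05 for r. The lymphocyte list had r = 0.729 (exact permutation p = 0.0538, adjusted p = 0.287) and the heme synthesis list r = −0.660 (exact permutation p = 0.0718, adjusted p = 0.287). The rank coefficient of the heme synthesis list was −0.810 (exact permutation p = 0.0218, adjusted p = 0.145), the 1 list of the 16 with an unadjusted p under 0.05 by rank. The red cell membrane and cytosol list had r = 0.463 and Spearman's coefficient = 0.238 (exact permutation p = 0.250 and 0.582), with an adjusted p of 0.432 for r. The neutrophil list had r = 0.536 (exact permutation p = 0.180) and the platelet list r = 0.462 (exact permutation p = 0.249), each with an adjusted p of 0.432, and the brain endothelium list had r = −0.606 (exact permutation p = 0.107, adjusted p = 0.356). Several of these coefficients moved without the 2 arrays farthest from the median of Hba-a2. Without them r was 0.809 for the red cell list, 0.810 for neutrophils, −0.838 for brain endothelium and −0.826 for astrocytes, the last against 0.217 over all 8 arrays, and −0.270 for heme synthesis.

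Each sample description opens with a number from 1 to 8 whose meaning is not given in the sources used here. Hba-a2 tended to be lower at higher numbers, with r = −0.687 (exact permutation p = 0.0630) and Spearman's coefficient = −0.738 (exact permutation p = 0.0458), neither of which passed after adjustment over the 20 relations (0.287 and 0.229). Without the 2 arrays farthest from the median, r was −0.755. Within groups, the mouse with the higher number had the lower Hba-a2 in 6 of 7 pairs, the exception being numbers 5 and 8 of the 10-day group. Hbb-bs and Hbb-bt ordered the arrays as Hba-a2 did, so their count was bound to be the same 6 of 7 and adds nothing to it. Alas2 gave 4 of 7. Pairs within a trehalose group share mice, so the 7 pairs are not separate. The number spans every group. The first principal component of the other tested probes, which took 24.7% of their variance, followed the same number with r = 0.927 (exact permutation p = 0.00129, adjusted p = 0.00258 over 2 relations) and a rank coefficient of 0.905 (exact permutation p = 0.00456, adjusted p = 0.00913), and r was 0.964 without the 2 arrays farthest from the median number. Its relation to Hba-a2 had r = −0.659 (exact permutation p = 0.0755, adjusted p = 0.0755) and a rank coefficient of −0.738 (exact permutation p = 0.0458, adjusted p = 0.0458), and r was −0.573 without the 2 arrays farthest from the median of Hba-a2. The component was not planned and not among the 20 relations. Adjustment over 2 relations leaves the larger p as it was, so the rank relation with Hba-a2 is not counted as passing. The same p became 0.229 over the 20. With the number as a covariate in the fit, the 1-day change of Hba-a2 against water was 1.01 with a standard error of 0.71. Without it they were 1.17 and 0.95. For Hbb-bs the change was 0.81 with a standard error of 0.49, and for Hbb-bt 0.71 with 0.50. The part of the number in the globin spread was not tested.

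**Figure D4:**
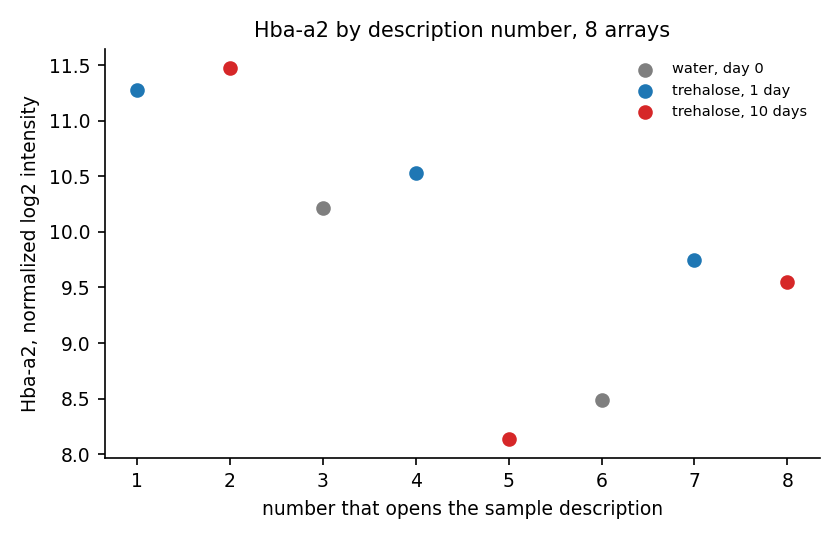
Normalized log2 intensity of Hba-a2 (y axis) against the number that opens the sample description (x axis), 1 point per array, coloured by group. Numbers 1 and 2 hold the highest values, 11.27 and 11.48, and numbers 5 and 6 the lowest, 8.13 and 8.48.

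The probes most like the globins over the arrays were ranked by r. Of 409 probes outside the 4 genes with a gene symbol and an SD of at least 0.2, clone names and numbered gene models left out, only Hbb-b2 (0.991) had an r of at least 0.9 with the mean of the 3 globin genes over the 8 arrays. The nearest after it were Jpt1 (0.887), Tmem63c (0.887), C1qtnf9 (0.861), Zfp933 (0.851), Spaca3 (0.825), Tac2, the neurokinin B precursor (0.809), and Slc6a9, a glycine transporter (0.806). Krtap19-2, Cntn1, Hjurp and Rora followed at 0.796, 0.769, 0.762 and 0.743. The most opposed were Atp6v1f, a subunit of the vacuolar proton pump (−0.892), Tpm3, a tropomyosin (−0.858), Azin1 (−0.854), Zfand6 (−0.849), Slc25a33 (−0.844) and Ctage5 (−0.834). The ranges of these 17 genes other than Hbb-b2 lay between 0.53 and 1.18 on the log2 scale, against 3.34 for Hba-a2. These coefficients share the 8 arrays and were the extremes of a ranked list, and carry no p.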

How the data were processed

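RNA of 8 mouse brains was measured on 1 one-colour array each. Per the labels' protocols, total RNA was amplified with amino allyl labelling and coupled to Cy5. Per the file headers, the scanner files give each spot's median intensity, from 3 gains combined by least squares, and a local background intensity. The authors also deposited a table of processed intensity values, whose method is not given in the sources used here. From the spot medians, limma 3.58.1 in R 4.3.3 corrected the background (normexp, offset 50), quantile normalized the arrays and averaged the spots of a probe. Probes entered the test when at least 2 arrays read them above the detection limit (blank mean + 2 SD), and 10 failed probe spots were set to missing. All arrays entered 1 fit with 3 groups (5 residual degrees of freedom), moderated by eBayes, with Benjamini-Hochberg adjustment over all tested probes. The procedure was tested on simulated data.

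The 4 genes and the marker lists were chosen with earlier results of these data known. The rule for named genes took fixed defining markers, the 2 genes of each list with the largest SD, and the 12 highest and 6 lowest correlations with the globin mean among probes with a symbol and an SD of at least 0.2. Relations with other measures were planned with the mean of the 3 globins and are given for Hba-a2 alone, an alternative chosen after seeing the data. The reason was that a mean of chosen genes carries no p. Hba-a2 was itself chosen for its spread over these arrays, and the change of measure does not remove that limit from its p-values. The largest difference in r between both measures was 0.0290. Correlations used exact permutation tests, two-sided. Symbols come from the platform annotation, and promoters from RefSeq (GRCm38.p6). Neither scan date nor slide is given in the sources used here, so batches could not be tested. Replicate numbers were checked as pairs and, since not every same-numbered pair deviated together, were taken to share only a number. The number of arrays limits the precision.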

Additional observations from a re-analysis of the deposited data

How the results depend on the processing

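Of 571 recomputed values, 528 counted as unchanged. For a change or a correlation this meant the same direction and the same side of 0.05. A range had to move by less than the SD within groups, and a count had to stay equal. No change of the 4 genes passed under any alternative (lowest adjusted p in limma 0.770, for Alas2). The count of probes passing, 0 in each comparison, was 1 with the blank mean subtracted at 10 days against water, at 10 days against 1 day and for both trehalose times pooled, and 1 with a trended, robust variance at 10 days against water and against 1 day. The probe was Il1rl2 each time, named after its values were seen. Leaving out single arrays gave 0 to 2 passing probes in each comparison with water and 0 between the times. The 2 were Sult4a1 and Ifitm3, without water mouse 1, where water mouse 2 alone was assumed to vary like the other groups. The range of Hbb-bt was 3.62 with the blank mean subtracted and 3.75 in the authors' table. List probes with a range of at least 1 numbered 21 with the blank mean subtracted, 2 with an offset of 16, 50 with the local background subtracted and 17 in the authors' table. The list correlations passing with Hba-a2 were 0 with the local background subtracted, with median scaling and in the authors' table, 2 without normalization, 0 with the Hbb-b2 relation left out of the adjustment (chosen after seeing the data), and 0 to 1 without single arrays. Hbb-bt at 10 days against 1 day was 0.060 with the local background subtracted. Alas2 in that comparison was 0.040 in the authors' table and −0.047 to 0.0033 without single arrays. The correlation of Hba-a2 with Alas2 was −0.463 with the local background subtracted, the lowest of the other settings, and the highest was 0.723. That with heme synthesis was 0.195 without normalization. Without single arrays the 10-day changes against water lay between −0.51 and 1.24 (Hba-a2), −0.38 and 0.96 (Hbb-bs) and −0.40 and 0.87 (Hbb-bt), and the pooled changes between −0.094 and 1.63, −0.060 and 1.28, and −0.049 and 1.15. They were below 0 without water mouse 2 in both comparisons and, at 10 days, without mouse 1 of that group. The cause of these moves was not tested. With the replicate block 0 probes passed in every comparison. Hba-a2 then had log2 changes of 1.40 at 1 day and 0.61 at 10 days against water. Its standard error was 0.55 in place of 0.95. At 1 day against water Hbb-bs changed by 1.11 with the block, with a standard error of 0.34 in place of 0.68. Hbb-bt changed by 1.02, with a standard error of 0.41 in place of 0.69. Deviations of the 7 same-numbered pairs correlated at −0.02 to 0.26 (median 0.22, 6 of 7 over 0.1) and those of the 14 other pairs at −0.31 to 0.21 (median −0.08). A sample correlated best with its own number in 11 of 14 cases. These cases are not separate, because deviations from a group mean sum to 0 within each group. The 2 water mice are thus mirror images, at 0.263 and −0.263 with mouse 1 of the 1-day group. Within groups the replicate number also runs in the order of the description number, so the 2 cannot be told apart here. Since not every pair was over 0.1, the numbers were not taken as pairs. Dim probes such as Alas2, about 2 times the detection limit, can hide changes that the offset compresses.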

Other observations

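Among the 12 probes with the widest spread, named after their values were seen, were liver-type transcripts that ordered the arrays differently from the globins. Mup2 and Mup19, major urinary proteins secreted by the liver, and Alb, serum albumin, had SDs of 0.959, 0.892 and 0.717. Mup2 read 8.35 and 6.15 with water, 5.87, 6.08 and 7.64 at 1 day, and 5.87, 7.57 and 6.52 at 10 days. Alb read 8.03 and 6.18 with water, 6.00, 6.17 and 7.09 at 1 day, and 6.09, 7.11 and 6.28 at 10 days. Both were thus brightest in water mouse 1, mouse 3 of the 1-day group and mouse 2 of the 10-day group, and the last of these had the lowest Hba-a2 of all 8 arrays. As a description over the 8 arrays, of probes chosen for their wide spread, Mup2 and Alb had r = 0.980 with each other. Their r with Hba-a2 was −0.394 for Mup2 and −0.283 for Alb, and that of Mup19 was −0.379. The rank coefficients with Hba-a2 were −0.571 for Mup2, −0.667 for Mup19 and −0.643 for Alb. Also in the 12 were Sult4a1, a brain sulfotransferase, at 7.74 in water mouse 2 against 9.68 to 9.94 on the other 7 arrays, and Erdr1 and Xlr3c, with SDs of 0.663 and 0.592. The source of these spreads was not tested.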
